A study of Mus musculus with 24 samples.

Results

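The genes described here encode the machinery of mitosis and of the spindle, and they were read on 24 arrays of mouse thyroid and thyroid tumour RNA. They were taken as a list of 45 names, of which 43 had a probe set annotated to them among the 12394 genes measured. Ccnb1, a cyclin partner of CDK1, and Cdca8, a subunit of the chromosomal passenger complex, had none and are not analysed here. Where several probe sets name a gene, the brightest on average represents it, and all 43 were tested, with no filter on low values.

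The arrays hold 9 recurrent tumours, 5 anaplastic thyroid cancers (ATC, an undifferentiated tumour type), 4 papillary thyroid cancers (PTC, a differentiated type) and 6 pools of normal thyroid glands. The study concerns resistance of ATC to loss of BRAF, a kinase of the MAPK cascade, and the part that Met, a receptor kinase, and its ligand Hgf play in it. The labels give only the tissue of each sample. They name no strain, allele, age, driver of the transgene or treatment time, and do not say whether each tumour is from an animal of its own. The p-values therefore cover the spread among these samples, which may in part be technical. Among normal pools, 4 have WT and 2 have Cre in their titles.

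Cells that divide duplicate their chromosomes, condense them and pull the copies apart on a spindle of microtubules. The kinase CDK1 with its cyclins starts the process. Polo-like, Aurora and Bub kinases order its steps, kinesin motors shape the spindle, and the anaphase-promoting complex ends it by marking cyclins and securin for destruction. Most genes of this machinery are silent in resting cells and switch on late in the cell cycle. In mouse and human cells that timing is read from 2 short promoter elements, the cell cycle homology region (CHR, TTTGAA), bound by the MuvB complex with B-Myb and FOXM1, and CCAAT boxes, bound by NF-Y. In tumours, pathologists use the protein of Mki67 as a marker of dividing cells.

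The promoters that carry these elements are shown first, for genes whose values are described further on. They come from RefSeq's promoter windows on GRCm38.p6, which run from 250 bases before to 50 bases after the start given there. The lines show 175 bases of each window, 5′ to 3′ along the gene, and the start is base 151 of each line. Capitals mark every TTTGAA or CCAAT, read on both strands (TTCAAA and ATTGG on the other), and matches of the pair were allowed to overlap. Cdk1, Ccnb2, Cdc20, Top2a and Kif11 hold both motifs, and Birc5 and Pttg1 hold neither in their whole windows. The stretches are chr10:69352888-69353062 on the minus strand, chr9:70421530-70421704 on the minus strand, chr4:118437319-118437493 on the minus strand and chr11:99024165-99024339 on the minus strand. The others are chr19:37376232-37376406 on the plus strand, chr11:117849087-117849261 on the plus strand and chr11:43425957-43426131 on the minus strand.
Cdk1: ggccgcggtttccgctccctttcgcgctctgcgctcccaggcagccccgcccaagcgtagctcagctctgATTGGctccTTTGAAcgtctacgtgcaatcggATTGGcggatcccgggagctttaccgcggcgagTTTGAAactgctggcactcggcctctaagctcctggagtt
Ccnb2: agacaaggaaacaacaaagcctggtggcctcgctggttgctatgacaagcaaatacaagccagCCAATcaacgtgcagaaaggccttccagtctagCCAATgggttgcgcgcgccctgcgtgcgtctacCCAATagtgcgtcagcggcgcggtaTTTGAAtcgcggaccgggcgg
Cdc20: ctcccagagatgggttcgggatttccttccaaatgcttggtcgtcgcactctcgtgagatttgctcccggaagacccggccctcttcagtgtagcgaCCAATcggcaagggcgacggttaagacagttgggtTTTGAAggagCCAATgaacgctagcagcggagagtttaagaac
Top2a: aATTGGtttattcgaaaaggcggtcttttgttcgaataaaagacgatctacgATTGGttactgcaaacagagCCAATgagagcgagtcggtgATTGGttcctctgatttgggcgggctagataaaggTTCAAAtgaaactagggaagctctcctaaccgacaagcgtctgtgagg
Kif11: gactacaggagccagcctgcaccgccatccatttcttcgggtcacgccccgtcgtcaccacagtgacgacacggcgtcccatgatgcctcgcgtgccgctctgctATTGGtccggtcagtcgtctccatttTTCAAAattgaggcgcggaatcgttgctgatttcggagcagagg
Birc5: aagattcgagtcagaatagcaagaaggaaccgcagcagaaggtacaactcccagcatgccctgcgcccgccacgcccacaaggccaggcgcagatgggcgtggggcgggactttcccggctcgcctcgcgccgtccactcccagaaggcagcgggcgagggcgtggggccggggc
Pttg1: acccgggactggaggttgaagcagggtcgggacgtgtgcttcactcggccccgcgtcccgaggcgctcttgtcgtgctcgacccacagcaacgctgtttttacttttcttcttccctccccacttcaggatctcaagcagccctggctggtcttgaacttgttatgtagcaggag

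Windows were found for 34 of the 43 measured genes. The CHR sequence stood in 25 of these 34 genes (73.5%), against 17.9% of all 32851 windows in the table. CCAAT stood in 27 of 34 (79.4%) against 37.4% of all windows, and at 2 or more places in 19 of 34 (55.9%) against 11.7%. Both motifs stood together in 23 of 34 (67.6%) against 6.95%. A CHR sequence lay within 50 bases of the start in 22 of 34 genes (64.7%) and in 4.94% of all windows. The variant TTCGAA stood in 3 of 34 genes and in 1.56% of windows. A match is a run of letters, not a shown binding site. In 15 of 34 windows checked, the start is also the outer end of the gene in RefSeq's gene table. Motifs outside a window are not counted. The 5 genes with neither motif were Birc5, Mad2l1, Melk, Nusap1 and Pttg1.

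**Figure D1:**
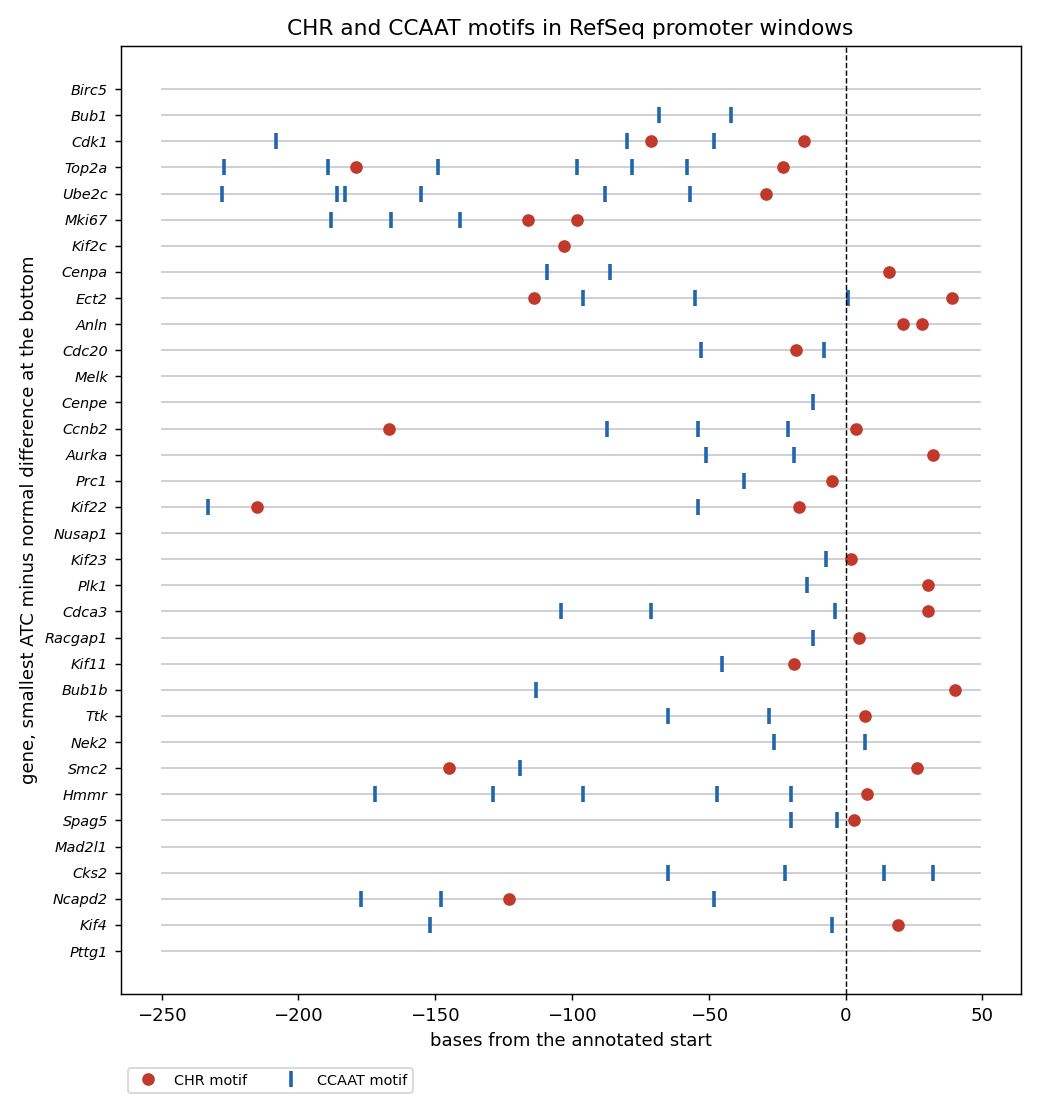
Positions of the CHR sequence TTTGAA (red circles) and of CCAAT (blue ticks), both strands, in the RefSeq promoter windows of 34 mitosis and spindle genes; the x axis gives bases from the annotated start (dashed line), and genes run from the largest ATC minus normal difference at the top to the smallest at the bottom. A CHR sequence lies within 50 bases of the start in 22 of the 34 genes.

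Across the whole set, tumours carried more of these transcripts than normal thyroid. Levels are log2 intensities from the deposited RMA values, and a difference of 1 is a doubling. A gene counts as having risen or fallen where limma's adjusted p, over all 12394 genes, was under 0.05. In recurrent tumours against normal pools, 41 of 43 genes rose and 0 fell, with a median difference of 2.56 on the log2 scale, 5.89-fold. Among all genes 14.5% rose and 19.3% fell, with a median of -0.03. In ATC against normal pools, 38 of 43 rose and 0 fell, with a median of 2.08, 4.23-fold, where 15.1% of all genes rose, 19.1% fell and their median was -0.08. In PTC against normal pools, 14 of 43 rose and 0 fell, with a median of 1.16, 2.24-fold, where 6.16% of all genes rose, 8.03% fell and their median was -0.01. Without PTC array 4 the last count was 4. These comparisons share the same 6 pools. In a bulk sample, more dividing cells and more of these transcripts per dividing cell cannot be told apart.

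The tumour groups were ordered alike for most genes. The recurrent mean was the highest, followed by ATC, PTC and then normal, in 36 of 43 genes. Normal pools had the lowest of the 4 means in 42 genes, all but Pttg1, and recurrent tumours the highest in 38. Shares of all genes with these orders were not computed. ATC exceeded PTC by a median of 0.91, with 4 genes of 43 called higher and 0 lower (7.81% and 9.35% of all genes). Without PTC array 2, 0 were called higher. Recurrent tumours exceeded ATC by a median of 0.41, and limma called 0 of 43 genes higher or lower (1.19% of all genes rose and 3.12% fell), with 4 of 43 at an unadjusted p under 0.05. With arrays of the other groups set aside, the ATC and PTC arrays gave 31 genes higher, as described further on.

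**Figure D2:**
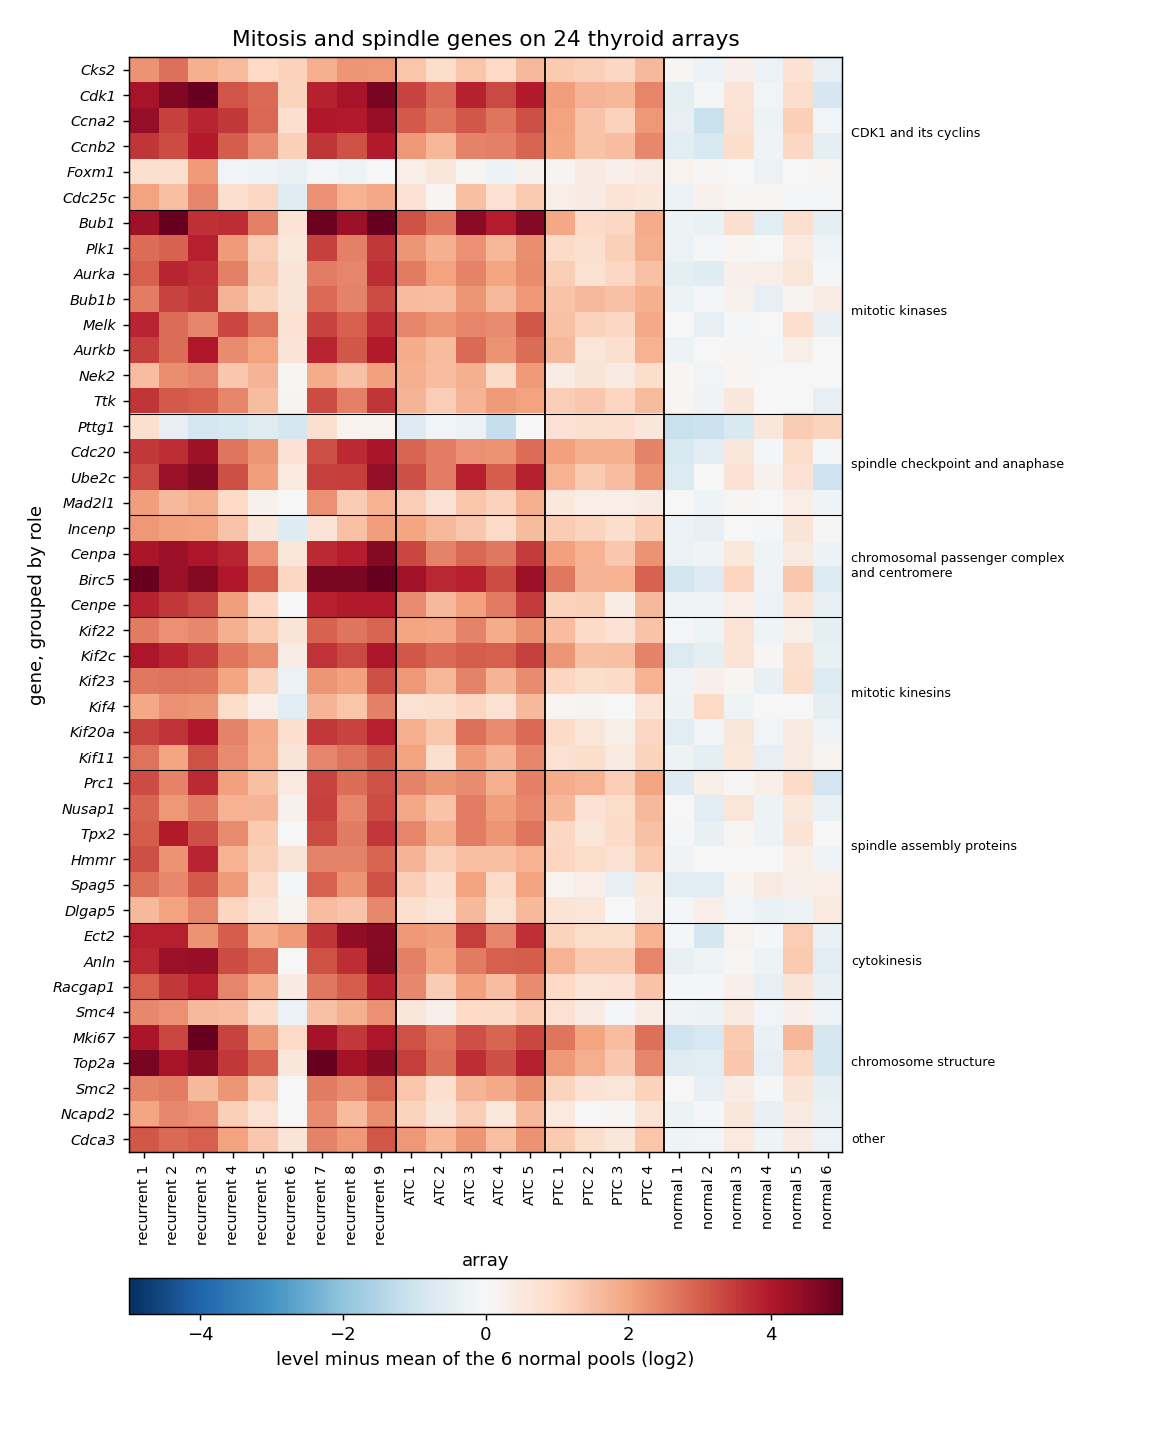
Level of each of 43 mitosis and spindle genes on each of 24 arrays, as the difference from the mean of the 6 normal pools on the log2 scale (colour), with genes in rows by role and arrays in columns by tissue label. Recurrent array 6 stands out as pale among the recurrent tumours, and Foxm1 and Pttg1 do not follow the other rows.

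The trigger of mitosis was among the largest changes. Cdk1, the kinase that starts mitosis (chromosome 10), lay at 7.24, 10.24 and 11.06 in recurrent tumours (lowest, median and highest of 9), at 9.51, 8.96, 9.98, 9.41 and 10.10 in ATC, at 8.19, 7.80, 7.79 and 8.57 in PTC, and at 5.28, 6.01 and 7.0 in normal pools (lowest, median and highest of 6). Every tumour array of each type lay above every normal pool, and ATC lay above PTC without overlap. It rose 13.2-fold in recurrent tumours (difference 3.73, SE 0.43, limma adjusted p = 1.06e-06) and 11.1-fold in ATC (3.48, SE 0.50, limma adjusted p = 1.53e-05) against normal pools. In PTC it rose 3.91-fold (1.97, SE 0.53, limma adjusted p = 0.0143). The PTC call was lost without PTC array 4 (limma adjusted p = 0.0553). The gap of 1.51 between ATC and PTC was not called (limma adjusted p = 0.0637).

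Most partners of CDK1 rose too. Ccna2 (cyclin A) rose by 3.46 in recurrent tumours, 2.94 in ATC and 1.69 in PTC against normal pools on the log2 scale. Ccnb2, a cyclin B, lay at 6.75, 8.82 and 9.52 in recurrent tumours (lowest, median, highest), between 7.21 and 8.45 in ATC, between 6.96 and 7.96 in PTC and between 4.76 and 6.60 in normal pools. It thus set all 3 tumour types apart from normal pools, while ATC and PTC overlapped. Cks2, a small protein that binds CDK complexes, rose by 1.25 in ATC (SE 0.26, limma adjusted p = 0.000781) and by 1.30 in PTC (SE 0.28, limma adjusted p = 0.00287) against normal pools. Its PTC levels lay between 9.74 and 10.31, all above the normal pools, at most 9.40. On the probe sets used, Foxm1 and Pttg1 are the other 2 genes whose PTC difference from normal pools was above the ATC difference. The second probe set of Cks2 was nearly as bright, with a mean level of 9.85 against 9.86. On it ATC arrays 3, 4 and 5, at 9.97 to 10.42, lay above every PTC array, at 9.21 to 9.77. ATC array 1, at 9.47, lay among the PTC arrays, and ATC array 2 lay below them. The order of PTC and ATC for Cks2 thus depended on the probe set. Cdc25c, the phosphatase that activates CDK1, rose by 1.46 in recurrent tumours against normal pools (limma adjusted p = 0.00154). Its ATC difference of 0.87 was not called (limma adjusted p = 0.0802), and it was named after its values were seen.

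All 8 kinases of the list other than CDK1 rose in ATC and all 8 in recurrent tumours against normal pools. In PTC 2 of 8, Bub1b and Melk, rose. Of all genes 15.1% rose in ATC, 14.5% in recurrent tumours and 6.16% in PTC. Bub1, a checkpoint kinase at the kinetochore (chromosome 2), showed the widest gap between ATC and PTC of all 43 genes. It lay at 7.99, 7.50, 9.30, 8.71 and 9.38 in ATC, at 6.74, 5.75, 5.84 and 6.68 in PTC, and at 4.29, 4.51 and 5.60 in normal pools (lowest, median, highest). No ATC array overlapped PTC, and no PTC array overlapped the normal pools. ATC exceeded PTC by 2.32 (SE 0.67, limma adjusted p = 0.019) and normal pools 13.6-fold (3.77, SE 0.60, limma adjusted p = 5.36e-05). Plk1 and Aurkb, the Polo-like and Aurora B kinases, rose by 2.05 and 2.26 in ATC against normal pools, with limma adjusted p = 0.000749 and 0.000435. In PTC against normal pools they differed by 1.19 and 1.20, on all 4 arrays above all pools, and limma did not call them (adjusted p = 0.0868 and 0.1). Nek2, a centrosome kinase, was nearly even among normal pools, at 5.15 to 5.38, and lay at 6.24 to 7.42 in ATC and 5.66 to 6.16 in PTC. Its level in ATC exceeded that in PTC by 1.06 (SE 0.32, limma adjusted p = 0.0249). For Bub1 the ATC and PTC difference was 1.49 among JK titles alone and 1.35 with the mean of probe sets, and both were called (limma adjusted p = 0.0452 and 0.0427). With that mean Bub1 differed from normal pools by 2.30 in recurrent tumours and 2.21 in ATC. The Bub1 call was lost without any one of PTC arrays 2 and 3 and ATC arrays 3 and 5 (limma adjusted p of 0.0503 to 0.0667), and the Nek2 call without any one of those or PTC array 1 (0.0533 to 0.0712).

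Among regulators of anaphase, Cdc20 and Ube2c rose, while the brightest probe set of securin was not called. Cdc20, the activator of the anaphase-promoting complex, lay at 10.18, 9.83, 9.57, 9.53 and 10.08 in ATC, at 9.33, 9.10, 9.08 and 9.76 in PTC, and at 6.46, 7.20 and 8.17 in normal pools (lowest, median, highest). It rose over normal pools by 2.05 in PTC (SE 0.49, limma adjusted p = 0.00593) and by 2.57 in ATC (SE 0.46, limma adjusted p = 0.000158). The difference of 0.52 between ATC and PTC was not called (limma adjusted p = 0.531). Ube2c, the ubiquitin-conjugating enzyme of that complex, rose 9.93-fold in ATC over normal pools. Mad2l1, the checkpoint protein that holds Cdc20 back, rose by 1.27 in ATC and by 0.40 without a call in PTC.

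Pttg1 (securin, the inhibitor of separase, chromosome 11) differed from the other members on its brightest probe set. It lay at 9.90, 10.34 and 11.57 in recurrent tumours (lowest, median, highest), at 10.10, 10.61, 10.46, 9.59 and 10.76 in ATC, at 11.49, 11.56, 11.60 and 11.33 in PTC, and at 9.65, 9.68, 9.99, 11.30, 12.01 and 11.88 in the normal pools. The pools fell into 3 low and 3 high arrays, and 2 of the high ones are those titled Cre. Every ATC array lay below every PTC array (17.5% of all genes did so), a difference of -1.19 (SE 0.47) that was not called (limma adjusted p = 0.0831). With the ATC and PTC arrays fitted by themselves it was (limma adjusted p = 0.00258). Against normal pools it differed by -0.17 in recurrent tumours and by -0.45 in ATC (limma adjusted p = 0.755 and 0.449). Pttg1 has 3 probe sets, and the next brightest gave other differences. It lay at 8.70 to 10.62 in recurrent tumours, 8.12 to 9.61 in ATC and 8.75 to 9.10 in PTC, so ATC and PTC overlapped, and at 7.34 to 7.59 and 9.0 to 10.02 in the 3 low and 3 high normal pools. On it recurrent tumours exceeded normal pools by 1.08 (limma adjusted p = 0.0464 over all probe sets), and ATC differed from them by 0.18 (limma adjusted p = 0.818). These 2 probe sets of Pttg1 thus disagree in sign in both comparisons. On the dimmest, ATC lay at 5.95 to 6.74, below PTC at 7.35 to 7.61, as on the brightest. Recurrent tumours lay there at 6.40 to 7.45 and normal pools at 6.27 to 7.97. The promoter window of Pttg1 holds neither motif, as printed above.

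At the centromere and in the chromosomal passenger complex, all 4 measured genes rose in ATC and in recurrent tumours against normal pools. Of all genes 15.1% rose in ATC and 14.5% in recurrent tumours. Birc5 (survivin, the passenger subunit that also binds caspases, chromosome 11) showed the largest difference of the set in both. It lay at 6.23, 9.77 and 10.68 in recurrent tumours (lowest, median, highest), at 9.39, 8.96, 9.07, 8.44 and 9.45 in ATC, at 7.81, 6.89, 6.93 and 8.13 in PTC, and at 4.28, 4.79 and 6.53 in normal pools. A single recurrent array, number 6, reached into the normal range. It rose 17.5-fold in recurrent tumours (4.13, SE 0.52, limma adjusted p = 2.59e-06), 14.6-fold in ATC (3.87, SE 0.59, limma adjusted p = 3.27e-05) and 4.75-fold in PTC (2.25, SE 0.63, limma adjusted p = 0.0189). The PTC call was lost without PTC array 1 or 4 (limma adjusted p of 0.0601 and 0.0726), as was that of Cenpa (0.0577 and 0.0663). Cenpa, the histone variant that marks centromeres, rose by 3.47 in recurrent tumours, 2.96 in ATC and 1.84 in PTC. Incenp, the scaffold of the passenger complex, and Cenpe, a kinetochore motor, rose by 1.49 and 2.43 in ATC.

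Of 6 mitotic kinesins, 6 rose in recurrent tumours, 5 in ATC and 2, Kif22 and Kif2c, in PTC against normal pools. The shares of all genes that rose were 14.5%, 15.1% and 6.16%. Kif2c, which takes microtubules apart at centromeres, rose by 3.07 in ATC (SE 0.48, limma adjusted p = 4.01e-05) and by 1.92 in PTC (SE 0.51, limma adjusted p = 0.0131), in PTC without a call where array 4 was left out (limma adjusted p = 0.0553). With the mean of its 4 probe sets the differences were 1.09 in ATC (limma adjusted p = 0.000635) and 0.66 in PTC, in PTC without a call (limma adjusted p = 0.0708). Kif20a, a kinesin of the central spindle, set ATC apart from PTC, at 7.18, 6.75, 8.12, 7.74 and 8.20 in ATC against 5.69 to 6.43 in PTC. That difference was 1.49 (SE 0.49, limma adjusted p = 0.0389), and the call was lost without any one of the 4 PTC arrays or of ATC arrays 3, 4 and 5 (limma adjusted p of 0.0571 to 0.116). It was also lost with a block for the title series (1.55, limma adjusted p = 0.0573) or for bare-number titles (1.63, limma adjusted p = 0.0506), and among JK titles alone the difference was 0.86 (limma adjusted p = 0.0823). Kif4, a chromosome-arm kinesin, lay at 7.62 in normal pool 2 and at 6.15 to 6.63 in the other 5. Its ATC difference from normal pools was 1.00 (limma adjusted p = 0.0663), and it was named after its values were seen.

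Spindle assembly factors and cytokinesis genes followed. All 6 spindle assembly genes rose in ATC and in recurrent tumours against normal pools. In PTC 1 rose, Prc1, a bundler of central spindle microtubules. Of all genes 15.1% rose in ATC, 14.5% in recurrent tumours and 6.16% in PTC. A single call in PTC cannot be set apart from that share. Spag5, an adaptor at spindle poles, lay at 4.88 to 5.81 in PTC and 4.71 to 5.73 in normal pools, so the 2 overlapped, and at 6.11 to 7.31 in ATC. In recurrent tumours against PTC it rose by 2.01 (SE 0.45, limma adjusted p = 0.00251). All 3 cytokinesis genes rose in ATC and in recurrent tumours and 0 of 3 in PTC. Ect2, the exchange factor that starts the cleavage furrow, lay at 7.74, 9.45 and 10.43 in recurrent tumours (lowest, median, highest), at 8.05, 7.96, 9.31, 8.32 and 9.53 in ATC, and at 6.99, 6.78, 6.77 and 7.60 in PTC. It is the only gene of the 43 for which every recurrent array lay above every PTC array (4.05% of all genes did so). ATC exceeded PTC by 1.60 (SE 0.52, limma adjusted p = 0.0368), a call lost without any one of PTC arrays 1, 2 and 3 and ATC arrays 3 and 5 (limma adjusted p of 0.0734 to 0.103). All PTC arrays have JK in their titles and 3 of 5 ATC arrays do not. The call was lost with a block for the title series (1.34, limma adjusted p = 0.118) or for bare-number titles (1.39, limma adjusted p = 0.117), and among JK titles alone the difference was 0.97 (limma adjusted p = 0.171).

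Chromosome structure genes included the proliferation marker. Mki67, which coats mitotic chromosomes, lay at 7.91, 10.46 and 12.37 in recurrent tumours (lowest, median, highest), at 10.09, 9.63, 10.15, 9.82 and 10.27 in ATC, at 9.59, 8.87, 8.46 and 9.65 in PTC, and at 5.91, 6.10, 8.23, 6.59, 8.56 and 6.06 in the normal pools. Normal pools 3 and 5 stood apart from the other 4, and pool 5 lay above the lowest PTC array. It rose 11.1-fold in recurrent tumours, 8.46-fold in ATC and 4.70-fold in PTC (limma adjusted p = 2.08e-05, 0.00033 and 0.0189), and limma did not call the difference of 0.85 between ATC and PTC (adjusted p = 0.413). Its PTC call was lost without PTC array 1 or 4 (limma adjusted p of 0.0629 and 0.0662). Top2a, the topoisomerase that untangles sister chromosomes, rose by 3.78 in recurrent tumours, by 3.40 in ATC and by 1.94 in PTC (limma adjusted p = 0.0392 for PTC). Its PTC call was lost without any one of normal pools 1, 2, 4 and 6 or of the 4 PTC arrays (limma adjusted p between 0.0548 and 0.117), and with the title series as a block (1.85, limma adjusted p = 0.0669). With the mean of its probe sets Top2a differed by 1.82 in recurrent tumours, 1.61 in ATC and 0.84 in PTC against normal pools, in PTC without a call (limma adjusted p = 0.0855). The condensin genes moved less. Smc2 rose by 1.63 in ATC, Ncapd2 by 1.02, and Smc4 differed by 0.82 without a call (limma adjusted p = 0.0684). Cdca3, an adaptor that brings the kinase Wee1 to its destruction, rose by 1.95 in ATC.

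**Figure D3:**
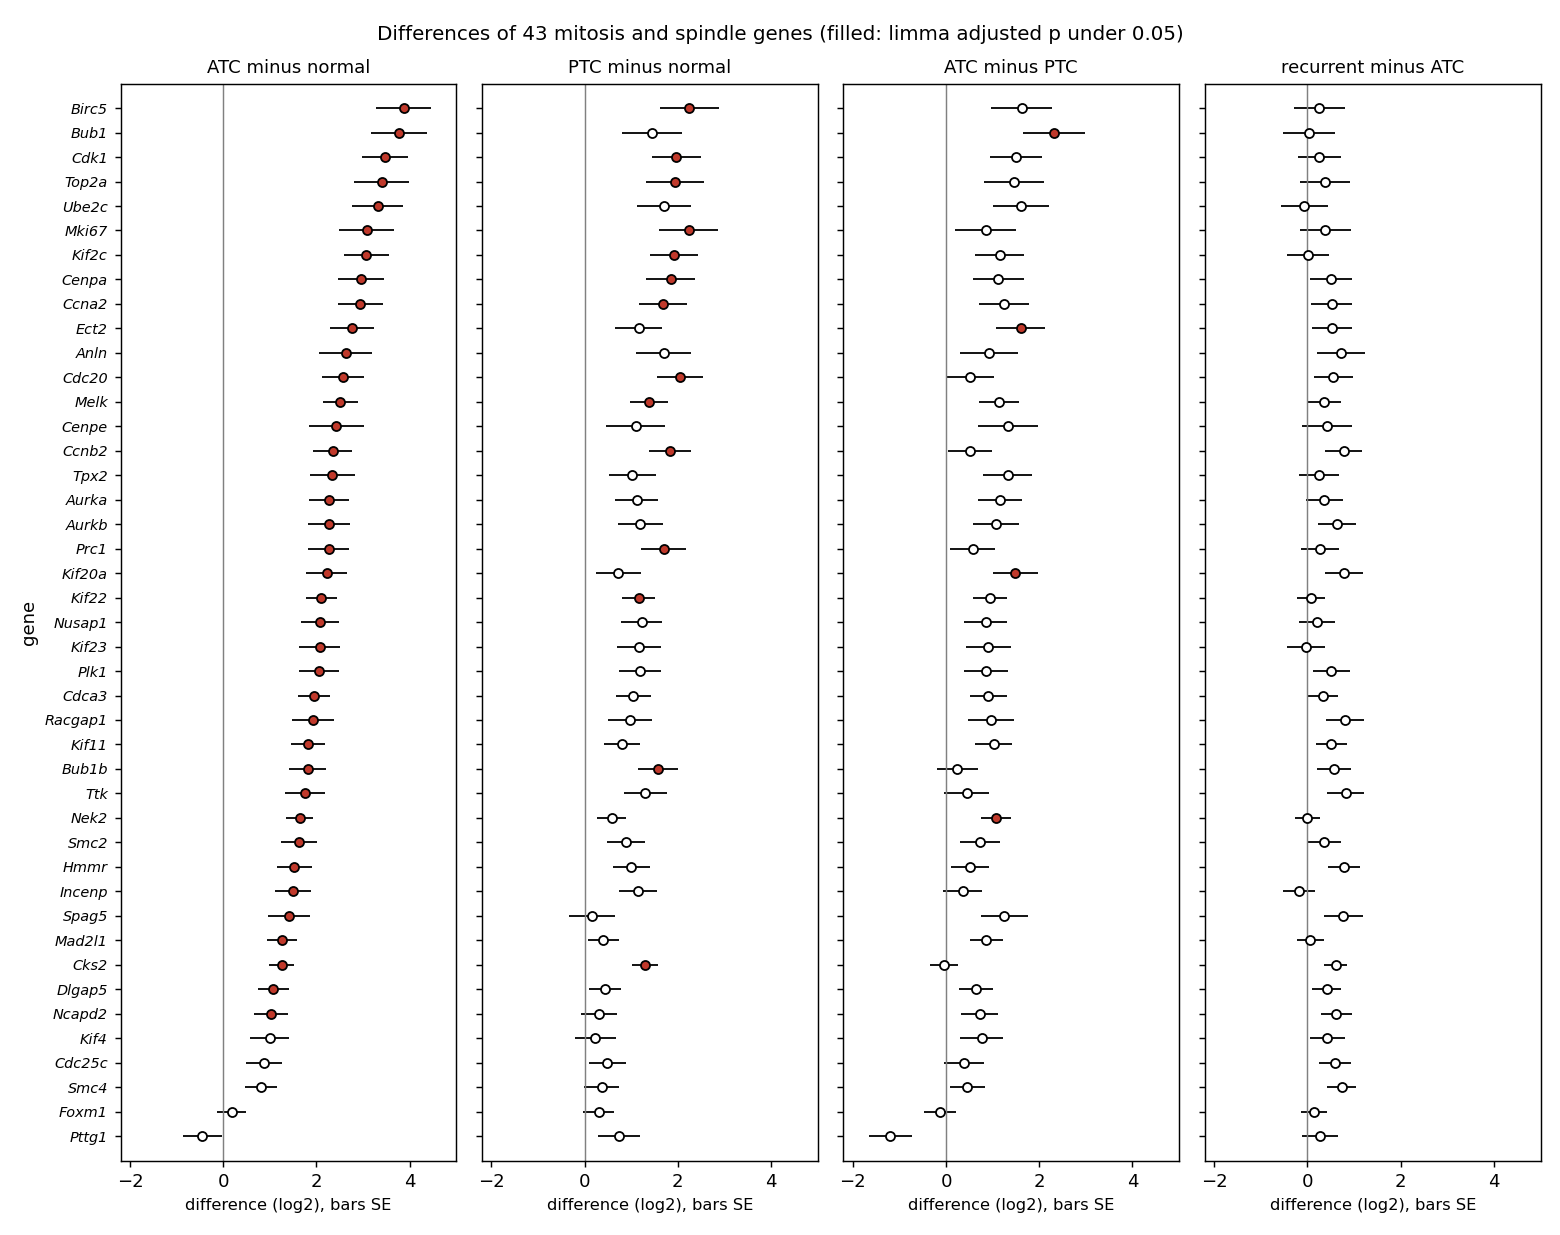
Difference on the log2 scale with its standard error for 43 genes in 4 comparisons (panels), with genes ordered by the ATC minus normal difference; filled points have a limma adjusted p under 0.05. There are 38 filled points for ATC minus normal, 14 for PTC minus normal, 4 for ATC minus PTC and 0 for recurrent minus ATC.

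Foxm1, the transcription factor that acts on many of these genes, was not called against normal pools on the probe set used, and its call depended on how titles were treated. It lay at 6.92, 7.20 and 9.35 in recurrent tumours (lowest, median, highest), at 7.56, 7.82, 7.28, 6.96 and 7.46 in ATC, at 7.39, 7.64, 7.47 and 7.66 in PTC, and at 6.96, 7.27 and 7.42 in normal pools. Its difference from normal pools was 0.32 in recurrent tumours, 0.18 in ATC and 0.30 in PTC (limma adjusted p = 0.397, 0.705 and 0.654). The 3 recurrent arrays with JK in their titles, at 8.04, 8.07 and 9.35, lay above the other 6, at 6.92 to 7.23. With bare-number titles as a block Foxm1 was higher than in normal pools by 1.02 in recurrent tumours and by 0.81 in ATC (limma adjusted p = 0.00107 and 0.00933). Among JK titles alone it was higher by 1.27 in recurrent tumours (limma adjusted p = 0.00287), and outside them it differed by -0.18 (limma adjusted p = 0.56). A fit of the PTC arrays and normal pools alone called the PTC difference of 0.30 (limma adjusted p = 0.0264). Foxm1 has 4 probe sets. On the second brightest the JK recurrent arrays, at 7.46 to 8.90, again lay above the other 6, at 6.59 to 6.99. PTC lay there at 6.97 to 7.12 and normal pools at 6.63 to 6.84. A dimmer one lay at 5.59 to 7.05 in recurrent tumours, at 5.95 to 7.16 in ATC and at 5.65 to 6.21 in normal pools. There the JK recurrent arrays, at 6.78 to 6.99, lay among the other 6, at 5.59 to 7.05. On that probe set ATC exceeded normal pools by 0.76 (limma adjusted p = 0.0222 over all probe sets). The probe sets of this gene thus disagree on a rise in ATC and on the split of recurrent arrays by title.

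**Figure D4:**
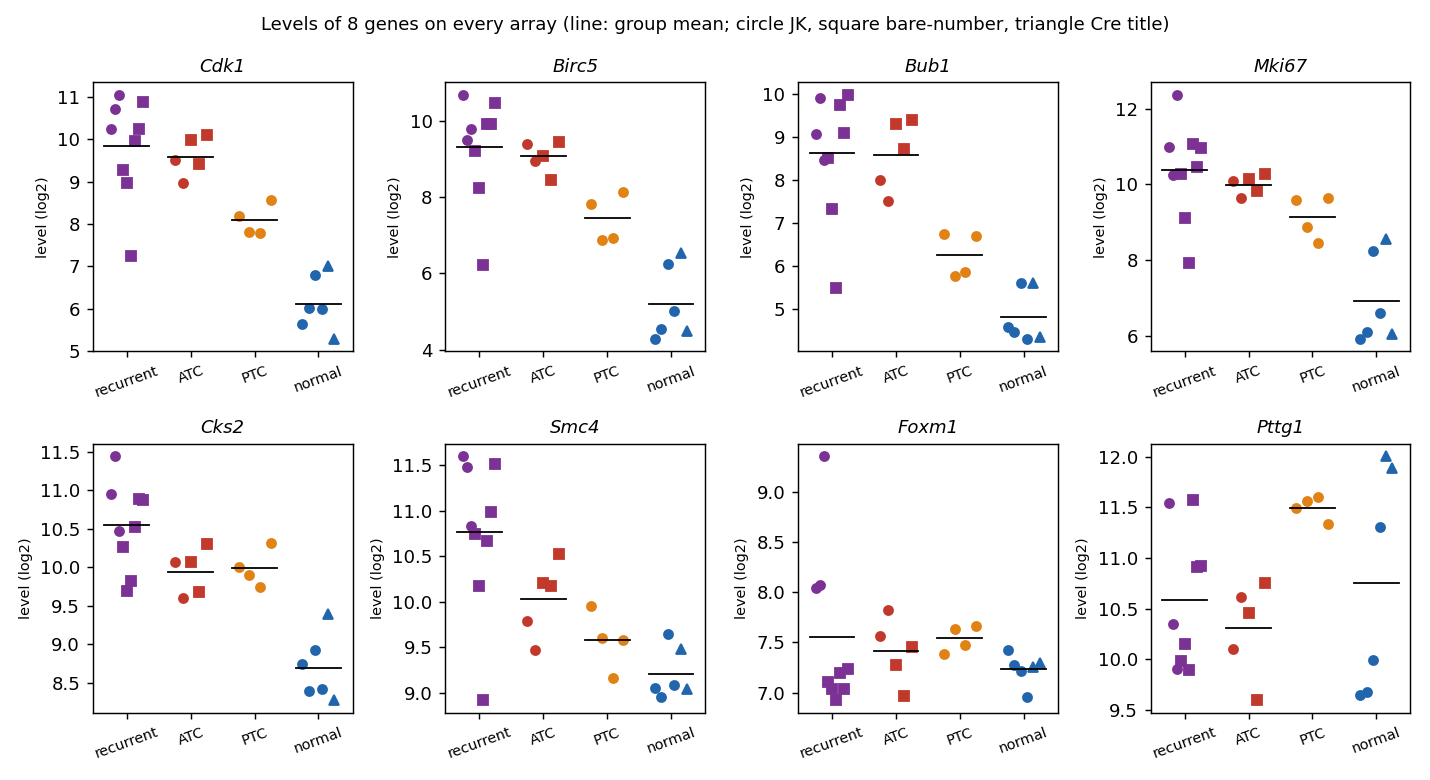
Level (log2) of 8 genes on every array by tissue label; the line is the group mean, and circles, squares and triangles mark arrays with JK, a bare number or Cre in their titles. Cdk1, Birc5, Bub1 and Mki67 are higher in tumours. On its brightest probe set Cks2 lies at similar levels in ATC and PTC. Smc4 overlaps between ATC and normal pools, and Pttg1 splits the normal pools. On the probe set used, Foxm1 is flat apart from 3 recurrent arrays.

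Recurrent tumours were the most uneven group. The mean of the 43 genes on an array, set against the normal mean, was 3.04, 2.95, 3.15, 2.21, 1.57, 0.38, 2.91, 2.69 and 3.32 on recurrent arrays 1 to 9 on the log2 scale. It was 2.05, 1.63, 2.27, 1.86 and 2.51 in ATC, 1.29, 1.00, 0.87 and 1.55 in PTC, and -0.31, -0.26, 0.35, -0.12, 0.61 and -0.27 in the normal pools. Recurrent arrays thus reach from the normal range to above every ATC array. The SD of a gene within a group had a median over the 43 genes of 1.05 in recurrent tumours, 0.41 in ATC, 0.35 in PTC and 0.43 in normal pools. Over all genes these medians were 0.52, 0.27, 0.14 and 0.18, so the 43 genes varied more than the typical gene in each of the 4 groups.

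Recurrent array 6 was the lowest of the 9 in 41 of 43 genes. It lay below every ATC array in 40 genes and below every PTC array in 35, and within the range of the normal pools in 25. On this array Top2a was at 6.95, Mki67 at 7.91 and Bub1 at 5.48, where the medians of the recurrent group were 10.53, 10.46 and 9.06. Recurrent array 5 lay below every ATC array in 20 genes. At the other end, recurrent arrays 1 and 9 lay above every ATC array in 40 genes each. For these counts of single arrays the shares of all genes were not computed. As a group, recurrent tumours lay above every normal pool in 13 of 43 genes (2.90% of all genes did so). The 8 arrays other than array 6 did so in 38. For these 8 arrays the share of all genes was not computed, and the 2.90% does not apply to them. Every recurrent array lay above every ATC array in 0 of 43 genes (0.202% of all genes), with or without array 6.

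**Figure D5:**
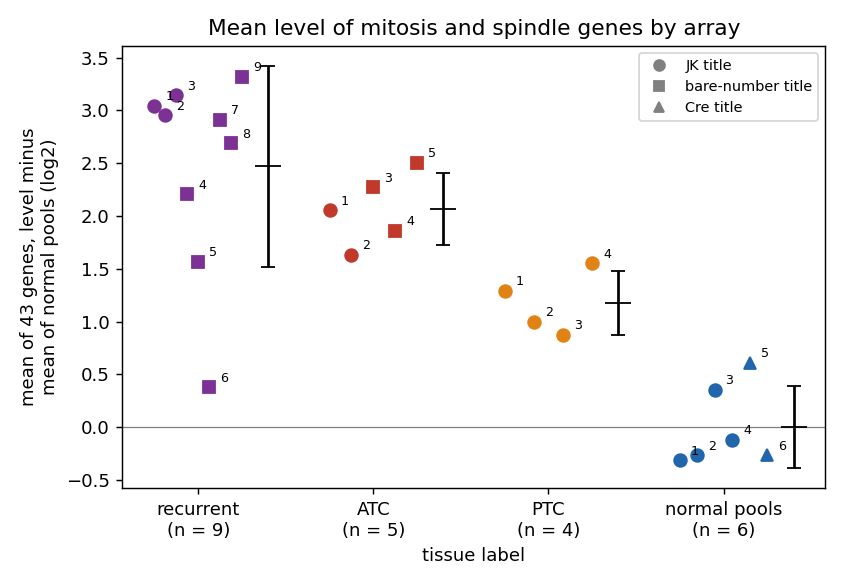
Mean over the 43 genes of the level minus the mean of the normal pools (log2) for each array, by tissue label; bars give the mean and SD of a group, numbers are replicate numbers, and shapes mark the kind of title. Recurrent arrays run from 0.38 on array 6 to 3.32 on array 9, and ATC arrays from 1.63 to 2.51.

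The difference between recurrent tumours and ATC moved with the kind of title. Within the JK titles, 3 recurrent arrays exceeded 2 ATC arrays by a median of 1.23, and limma called 21 of 43 genes higher (3.32% of all genes rose there). Outside them, 6 recurrent arrays exceeded 3 ATC arrays by a median of 0.01, with 0 genes called (0.00807% of all genes rose there). The means over the 43 genes were 2.21, 1.57, 0.38, 2.91, 2.69 and 3.32 on these recurrent arrays, numbers 4 to 9. They were 2.27, 1.86 and 2.51 on these ATC arrays, so the 2 lowest recurrent arrays, 5 and 6, are both outside the JK titles. Cdk1 differed by 1.44 within the JK titles and by -0.41 outside them. Without recurrent array 6, 7 of 43 genes were called higher in recurrent tumours than in ATC, and the median difference was 0.68. Whether the kind of title sets this difference was not tested.

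The largest differences between recurrent tumours and PTC were those of Bub1 (2.36, SE 0.60, limma adjusted p = 0.00665), Kif20a (2.27, SE 0.44, limma adjusted p = 0.000697) and Ect2 (2.13, SE 0.47, limma adjusted p = 0.00204). In all, 31 of 43 genes rose in recurrent tumours against PTC and 0 fell (9.71% of all genes rose and 12.1% fell). Mki67 and Cdc20, both called in PTC against normal pools, were higher than PTC by 1.23 and 1.07 without a call (limma adjusted p = 0.14 and 0.0946). In the fit of these 2 groups alone 8 genes were called (4.24% of all genes rose). In the common fit 39 were called without recurrent array 6 and 13 without PTC array 3.

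The PTC and ATC comparisons depended on how the spread was estimated. The common fit shares its estimate with the uneven recurrent arrays. A fit of the PTC arrays and normal pools alone called 37 of 43 genes higher (21.3% of all genes), and a fit of the ATC and PTC arrays alone called 31 higher and 1, Pttg1, lower (17.4% of all genes rose). Without regard to a fit, every PTC array lay above every normal pool in 26 of 43 genes (14.6% of all genes), and every ATC array above every PTC array in 19 (15.0% of all genes). Every ATC array lay above every normal pool in 37 of 43 genes (14.9% of all genes). Without PTC array 4 the common fit called 4 genes in PTC against normal pools, and without PTC array 2 it called 0 in ATC against PTC.

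Within the JK titles, 2 ATC arrays exceeded 4 normal pools by a median of 1.93, and 4 PTC arrays exceeded the same pools by 1.26. Outside them, 3 ATC arrays exceeded 2 normal pools by a median of 2.08, with 1 gene, Cdk1, called, and 6 recurrent arrays exceeded those pools by 2.09 with 0 called. All pools there have Cre in their titles and all tumours a bare number, and 2.21% and 0.936% of all genes rose.

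Other genes of mitosis are read against the 15.1% of all genes that rose and the 19.1% that fell in ATC against normal pools. Of 24 further kinetochore and centromere genes measured, 13 rose and 1 fell in ATC against normal pools, with a median of 0.64. They include Cenpf (2.79), Ska1 (1.64) and Nuf2 (1.58), which attach microtubules to kinetochores. Of 14 further condensin, cohesin and separase genes, 4 rose and 3 fell. Ncapg and Ncaph, non-SMC subunits of condensin, rose by 2.64 and 1.70, and Cdca5 (sororin, which protects cohesion) by 2.80. Of 20 other centrosome and spindle genes, 8 rose and 1 fell, led by Cep55, which acts in the final cut between daughter cells (4.01, limma adjusted p = 9.08e-06).

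Further lists cover protein breakdown, transport and CDK control, and several of their shares were near those of all genes (15.1% higher and 19.1% lower). Of 16 other genes of the anaphase-promoting complex, 4 rose and 1 fell in ATC against normal pools, with a median of 0.12, and Ube2s, its second conjugating enzyme, rose by 0.74. Of 18 kinesin genes that carry cargo between divisions, 1 rose and 5 fell, among them Kif5c (-1.51), Kif21a (-1.41) and Kif1b (-1.05). Of 19 other CDK regulators, 6 rose and 2 fell. Cks1b, the sister of Cks2, rose by 2.09, and Cdkn1a (p21, an inhibitor of CDKs) by 1.38 in ATC and 2.02 in PTC.

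The complexes that act on the CHR element were also read. Of 10 DREAM and MuvB genes measured, 2 rose and 2 fell in ATC against normal pools, near the shares of all genes (15.1% and 19.1%), and 3 rose and 3 fell in recurrent tumours, where 14.5% of all genes rose and 19.3% fell. Mybl2 (B-Myb) rose by 0.97 in recurrent tumours (SE 0.27, limma adjusted p = 0.00764) and Tfdp1, the partner of E2F factors, by 1.47 there and 1.10 in ATC. Of 12 genes linked to quiescence, 1 rose and 1 fell in ATC. Between recurrent tumours and ATC, 1.19% of all genes rose and 3.12% fell. There 1 of 24 kinetochore genes rose, Cenpm (0.66, limma adjusted p = 0.0421). Of 19 CDK regulators 1 rose, Cdkn2c, an inhibitor of CDK4 and CDK6 (1.18, limma adjusted p = 0.00485). Of 18 cargo-carrying kinesins 1 fell, Kif3c (-0.69, limma adjusted p = 0.0145). A single call says little about a list.

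The size of the rise was also set beside the promoter classes. In ATC against normal pools the median difference was 2.07 for the 23 genes with both motifs, of which 22 rose, and 2.08 for the 5 with neither, of which 4 rose. It was 2.04 for the 4 with CCAAT only and 2.85 for Anln and Kif2c, which hold TTTGAA only. The classes were not compared by a test.

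Markers of several cell types also differed between the groups. The mean of 10 thyroid follicular markers was 1.87 to 4.59 below normal in recurrent tumours, 2.18 to 4.09 below in ATC and 0.84 to 1.45 below in PTC, and 9 of 10 fell in ATC. The mean of 13 macrophage markers was -1.0 to 2.66 relative to normal in recurrent tumours, 1.87 to 2.27 in ATC and 0.70 to 1.59 in PTC, and 10 of 13 rose in ATC. Within the recurrent tumours the macrophage mean was high on some arrays where the 43 genes were high and low on others. It was 2.19 to 2.66 on arrays 1, 3, 8 and 9, at 2.69 to 3.32 for the 43 genes. On array 4, at 2.21 for the 43 genes, it was 2.14. Recurrent array 6, the lowest for these genes, had the lowest macrophage mean of all 24 arrays and the lowest mean of follicular markers. Arrays 2 and 7, at 2.95 and 2.91 for the 43 genes, had macrophage means of -0.39 and 0.36, and array 5, at 1.57, had 1.54. Of 10 fibroblast markers 7 rose in recurrent tumours and 6 in ATC, with median differences of 1.43 and 1.78, and all 6 adipocyte markers fell in both, with medians of -3.21 and -3.89. The fibroblast mean relative to normal was -0.10 to 2.58 in recurrent tumours, 1.46 to 2.28 in ATC and 0.21 to 1.38 in PTC, and the adipocyte mean was -4.54 to -1.27 in recurrent tumours, -4.73 to -3.32 in ATC and -3.75 to -2.72 in PTC. In ATC against normal pools, 2 of 9 neutrophil markers rose and 1 fell, 1 of 5 C-cell markers rose and 3 fell, and 0 rose of the T and NK cell (1 of 9 fell), B and plasma cell (2 of 7), erythroid (2 of 5), endothelial (1 of 10), parathyroid (2 of 3) and skeletal muscle lists (0 of 6). Normal pool 5 had the highest macrophage and B cell means of the pools, 1.00 and 0.75, and pool 3 the highest T and NK cell mean, 1.28. These are the 2 pools with raised division genes, with pool 5 the highest of the 6 in 25 of 43 genes and pool 3 in 11. For these counts the shares of all genes were not computed. Without both pools, the median ATC difference was 2.35. The part of these cells in the results was not tested.

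RNA integrity can be read from Gapdh control probe sets, as the signal at the 3′ end minus that at the 5′ end, and this was 1.11 to 1.60 in PTC and 0.64 to 0.98 in normal pools. On arrays with JK in the title it was 0.36 to 1.07 in recurrent tumours and 0.82 to 0.96 in ATC, and on those titled with a bare number -0.02 to 0.17 in recurrent tumours and 0.07 to 0.15 in ATC. Its part in the differences was not tested. Braf lay at 5.62 to 7.14 on 8 recurrent arrays and at 11.14 on recurrent array 2, within the ATC range of 10.29 to 11.98, so the library labelled recurrent 2 does not match the others of its label; the median difference between recurrent tumours and ATC was 0.67 without it and array 6.

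Of the 43 genes, 21 had further probe sets, 36 in all. In ATC against normal pools, 6 of those of called genes differed with the opposite sign, and in recurrent tumours against normal pools also 6. With the mean of all probe sets of a gene in place of the brightest, the median difference was 1.82 in ATC and 2.30 in recurrent tumours against normal pools.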

How the data were processed

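The 24 samples were read on Affymetrix Mouse430A_2 arrays. The authors deposited log2 intensity values for 22690 probe sets, which Partek and RMA produced per the submitters' processing notes, with no versions there. RMA equalises array distributions, so a shift of all genes would not be seen. Array medians lay between 7.38 and 7.58. Precision is limited by the number of arrays.

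Probe sets with 1 gene symbol (20393; 691 had several and 1606 none) were named by the platform annotation, updated by gene ID to RefSeq of GRCm38.p6 (20364 updated, 29 kept). Each of 12394 genes took its probe set of highest mean. Groups follow the tissue label, and replicate numbers follow record order. Of 276 pairs of arrays 0 were identical. limma 3.58.1 (R 4.3.3) fitted 4 group means over the 24 arrays, and p-values were adjusted by Benjamini-Hochberg over all genes, with a threshold of 0.05. The step was tested on simulated data. Python 3.11.15 and pandas 2.3.3 did the rest. Members, pathway lists and markers were chosen with earlier results of these data known, so the counts are descriptions. Differences are given with their test for the 8 largest called members of a comparison, for Mki67, Top2a, Cdk1, Plk1, Aurkb, Foxm1 and Cdc20 always, and for up to 3 called genes of each other list; other members were named after their values were seen. Alternatives tried were a separate fit for each pair of groups, a block for title series or for bare-number titles, JK titles alone, means of probe sets, a filter on dim genes, centring on array medians, repeated quantile normalization, array weights, a trended robust spread, a call that also needs a difference of 1, and leaving out each array. Arrays outside the JK titles, and pairs of arrays left out together, were added after seeing the data.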

Additional observations from a re-analysis of the deposited data

Results flagged for a closer look

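A sample at the end of its group was tested for its distance from the rest in 176 groups of 4 to 9 arrays. These covered the measured members and the array means, and 11 of the 176 stood apart. That is near the 1 in 20 that chance gives, so the cases below are descriptions. Recurrent array 6 was far below the other recurrent arrays for Ccna2 (7.04, the next at 9.05), Top2a (6.95, the next at 9.34), Kif2c (5.67, the next at 7.63), Nek2 (5.35, the next at 6.64), Anln (6.01, the next at 8.89) and Melk (5.53, the next at 7.21), all on the log2 scale. These genes encode a cyclin, a topoisomerase, a kinesin, 2 kinases and the actin-binding anillin of the cleavage furrow. Recurrent array 3 was far above the others for Foxm1, at 9.35, the next at 8.07. ATC array 5 was above the other ATC arrays for Melk, at 7.89 against 7.21. Normal pool 2 was high for Kif4, at 7.62, the next at 6.63, and normal pool 5 for Anln, at 7.30, the next at 6.05, and for Melk, at 5.60, the next at 4.81.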

How the results depend on the processing

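In a fit of the 2 groups alone, 37 members were higher in PTC against normal (21.3% of all genes). In ATC against PTC 31 were higher and 1 lower (17.4% of all genes rose), and 8 were higher in recurrent against PTC (4.24%). With array weights, 39 were higher in PTC against normal (24.5% of all genes). The weights gave 33 higher and 1 lower in ATC against PTC (23.1% of all genes rose), and 3 higher in recurrent against ATC (4.76%). With JK titles alone, 35 were higher in PTC against normal (11.8%), 10 in ATC against PTC (7.29%) and 21 in recurrent against ATC (3.32%). The title block gave 2 higher and 1 lower in ATC against PTC (6.83% of all genes rose). Of the brighter 6197 genes, which hold 16 members, 14 members were higher in ATC and 15 in recurrent against normal. Of the 6197 genes 19.8% rose in each. In ATC against PTC 0 members were higher (11.4% of these genes) and in recurrent against PTC 10 (14.8%). The median of members in PTC against normal was 1.69, and fewer genes were tested there. Outside the JK titles 1 was higher in ATC and 0 in recurrent against normal, with fewer arrays. Without recurrent arrays 2 and 6, 6 were higher in recurrent against ATC (3.4% of all genes). Leaving out each array in turn, members higher numbered 36 to 40 in ATC and 4 to 17 in PTC against normal, 0 to 5 in ATC against PTC, 0 to 7 in recurrent against ATC, 41 to 41 in recurrent against normal and 13 to 39 in recurrent against PTC.

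Among named genes, 1468 values kept their direction and side of the threshold, 80 lost the call, 36 gained it and 17 uncalled ones changed sign. Outside the JK titles Foxm1 was -0.040 in ATC against normal, -0.18 in recurrent against normal and -0.14 in recurrent against ATC, where Mki67 was -0.12, Top2a -0.14 and Cdk1 -0.41. Foxm1 in ATC against PTC was 0.31 with the title block, 0.15 with JK titles alone, 0.50 with a block for bare-number titles and 0.12 with means of probe sets. Leaving out each array in turn, Foxm1 ranged from -0.086 (without recurrent array 3) to 0.24 in recurrent against ATC. In recurrent against PTC it was -0.12 with array weights and ranged from -0.21 (without recurrent array 3) to 0.094, below 0 also without PTC 1, PTC 3, recurrent 1 or recurrent 2. Foxm1 gained a call with bare-number titles as blocks at 0.81 in ATC and 1.02 in recurrent against normal and 0.71 in recurrent against PTC, and with JK titles alone at 1.27 in recurrent against normal and 0.95 in recurrent against PTC. It also gained one in PTC against normal, at 0.30 in the 2-group fit and 0.31 with array weights. The cause was not tested. No paired analysis was possible because replicates were numbered in record order and the labels pair no samples. Signal near background was not measured in the values used, so dim members may be compressed.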
